A study of Mus musculus with 6 samples.

Results

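The 47 genes described here are interferon-stimulated and antigen-processing genes, chosen by symbol from a list of names, and all 47 were found among the 23393 named rows of the expression table. By role they were 4 sensors of viral nucleic acid, 6 regulators, 15 antiviral effectors, 3 members of the PARP-DTX3L group, 10 interferon-inducible GTPases, 7 genes of antigen processing and 2 chemokines. Interferons bind receptors that activate the Janus kinases. Type I interferons then act mainly through a complex that includes STAT2 and IRF9 and binds the interferon-stimulated response element (ISRE). Interferon-gamma acts through the gamma-activated site (GAS) and through the factor IRF1. In T cells the products of these genes restrict viruses and intracellular microbes and load peptides onto MHC class I.

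The genes were measured by RNA sequencing in 6 libraries of mouse pathogenic Th17 cells, the helper T cells that make IL-17. The first group, called Stim1KO Stat3C below, had the genotype Stim1fl/fl Stat3CSTOPfl/fl CD4-Cre, and the group it was compared with, called Stat3C, had the genotype Stat3CSTOPfl/fl CD4-Cre, with 3 libraries each. Both are on the C57BL/6 strain and carry Stat3C, a hyperactive form of the transcription factor STAT3, behind a stop cassette that Cre removes, so neither group is wild type. Cre driven by the CD4 promoter acts in developing T cells, and in the first group it also deletes Stim1, the sensor in the endoplasmic reticulum that opens calcium channels in the plasma membrane. Naive CD4 T cells of either genotype received anti-CD3 bound to the plate plus anti-CD28, and the cytokines IL-23, IL-1b and IL-6, over 2 days. The sources used here give neither the age and sex of the mice nor whether the libraries of a group came from separate mice, so p-values below reflect how these libraries vary, which may be technical.

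Values are normalised read counts, that is, reads per gene divided by a scaling factor per library. The libraries held 16009755 to 51347367 reads, a 3.21-fold range, and where a gene is listed at 0 as many as 3 reads could have been missed (1.30 to 4.11 normalised counts by library, counting error only). Stim1 had 811, 794 and 687 in Stim1KO Stat3C, against 1999, 1969 and 1931 in Stat3C, a log2 difference of -1.37 (SE 0.08, adjusted p = 0.000287), so the deleted gene went with the labels. All 6 T cell markers were present, at a summed 40665 to 44005 in Stim1KO Stat3C and 33105 to 36519 in Stat3C, and the Th17 markers summed to 4616 to 5449 in Stim1KO Stat3C and 14436 to 19057 in Stat3C. B cell markers summed to 32.2 to 63.0 in Stim1KO Stat3C and 134.5 to 380.8 in Stat3C, and the 2 CD8 markers to 110.6 to 158.9 in Stim1KO Stat3C and 277 to 453.5 in Stat3C. Of the 8 dendritic cell markers Siglech, Clec9a and Cd209a were at 0 in every library, whereas Itgax, Flt3, Xcr1, Zbtb46 and Ccr9 were detected. The list summed to 19.2 to 60.7 in Stim1KO Stat3C and 21.2 to 43.3 in Stat3C. In bulk RNA fewer cells of a type and less RNA per cell cannot be told apart. Stat3C replicate 2 stood apart from Stat3C replicates 1 and 3 in the interferon-stimulated genes, so the counts over the 47 genes are given with and without it. Some single genes are given from one fit only. A gene of the 47 said to have risen or fallen only without that library did not pass the test with 6 libraries.

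Promoter sequences held an ISRE core or a GAS match in 21 of 35 genes searched. The 250 bases before the transcription start were taken from RefSeq (GRCm38.p6), and those of 35 of the 47 genes were searched. The genes not searched were Iigp1, Parp14, Dhx58, Tap2, Gbp4, Nlrc5, Gbp6, Parp9, Zbp1, Oas2, Usp18 and Mx1. These need not all lack an entry there, so the shares given for the listed genes describe the 35 only. The core of the ISRE, searched on either strand as GAAA, any 2 bases and GAAA again, was present in 17 of the 35 genes (48.6%), against 3.46% of 27025 genes with an entry. The GAS, searched as TTCNNNGAA, which reads the same on either strand, was present in 11 of the 35 (31.4%), against 8.13%. The ISRE core was found in 7 of 7 GTPase genes searched, 7 of 13 antiviral effectors and 1 of 6 antigen-processing genes, and the GAS in 4 of 7 GTPase genes. A match is a description of these letters and not a site shown to be bound. Below are 5 promoters, chosen because their genes show the different patterns reported later, each written 5′ to 3′ in the direction of the gene with matches in capitals. Isg15 and Gbp7 were high in Stim1KO Stat3C and highest in Stat3C replicate 2, B2m was higher in Stim1KO Stat3C in every library, and Gbp5 and Cxcl10 had lower values there. Isg15 (chr4:156200819-156201068 on the minus strand) has 3 overlapping ISRE cores, Gbp7 (chr3:142530086-142530335 on the plus strand) and Gbp5 (chr3:142496684-142496933 on the plus strand) each have 1 ISRE core and 2 GAS matches, and B2m (chr2:122147437-122147686 on the plus strand) and Cxcl10 (chr5:92348890-92349139 on the minus strand) each have 1 ISRE core. The ISRE core thus stood both before genes with higher and before genes with lower values in Stim1KO Stat3C.
Isg15: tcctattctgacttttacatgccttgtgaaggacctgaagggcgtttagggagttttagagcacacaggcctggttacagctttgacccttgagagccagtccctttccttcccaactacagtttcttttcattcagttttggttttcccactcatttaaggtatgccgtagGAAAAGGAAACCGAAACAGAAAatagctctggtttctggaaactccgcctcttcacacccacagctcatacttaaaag
Gbp7: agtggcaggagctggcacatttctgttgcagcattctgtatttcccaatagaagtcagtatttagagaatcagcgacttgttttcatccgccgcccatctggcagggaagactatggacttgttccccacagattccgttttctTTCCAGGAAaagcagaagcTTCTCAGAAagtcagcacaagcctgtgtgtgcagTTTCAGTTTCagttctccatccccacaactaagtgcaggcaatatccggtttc
Gbp5: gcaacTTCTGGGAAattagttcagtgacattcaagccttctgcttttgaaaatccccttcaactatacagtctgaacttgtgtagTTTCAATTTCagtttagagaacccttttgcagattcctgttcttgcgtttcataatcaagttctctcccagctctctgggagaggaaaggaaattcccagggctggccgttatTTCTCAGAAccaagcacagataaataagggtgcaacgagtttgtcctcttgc
B2m: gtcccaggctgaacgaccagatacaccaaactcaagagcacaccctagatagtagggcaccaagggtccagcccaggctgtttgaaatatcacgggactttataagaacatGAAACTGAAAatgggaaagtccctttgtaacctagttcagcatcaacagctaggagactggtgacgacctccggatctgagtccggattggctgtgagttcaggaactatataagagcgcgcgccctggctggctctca
Cxcl10: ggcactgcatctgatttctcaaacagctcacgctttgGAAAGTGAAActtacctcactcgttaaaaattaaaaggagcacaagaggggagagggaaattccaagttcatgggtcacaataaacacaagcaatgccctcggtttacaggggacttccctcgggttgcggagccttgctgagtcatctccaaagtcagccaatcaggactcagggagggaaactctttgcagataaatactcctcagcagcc

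Loss of Stim1 was set against Stat3C alone to ask which interferon-stimulated genes differ. With all 6 libraries, 5 genes rose in Stim1KO Stat3C (Gbp4, Zbp1, B2m, Nlrc5 and Irf2), 1 fell (Cxcl10) and 40 did not pass the test, of 46 tested. The test was limma on log2(value + 1) with Benjamini-Hochberg adjustment over all 11947 genes with a mean of at least 10, and passing means an adjusted p under 0.05. Over all of those genes 13.6% passed, 8.62% higher and 4.96% lower, so 5 and 1 of 46 lay close to the background and say nothing particular about these genes. Ifit3, with 5.48, 1.07 and 0 in Stim1KO Stat3C, against 3.46, 2.02 and 8.72 in Stat3C, was too low to be tested, and Ifi44, Oas2, Oasl1, Rsad2 and Cxcl9 reached the minimum only through Stat3C replicate 2. Over the other 41 tested genes the median log2 difference was 0.25, against -0.00 over all genes tested, with 28 positive and 13 negative, against 49.8% positive over all genes. In 9 of the 41 genes no library of one group overlapped the other, against 35.6% of all genes.

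Without Stat3C replicate 2, 24 of 41 tested genes rose in Stim1KO Stat3C, 2 fell (Cxcl10 and Gbp5) and 15 did not pass. The background in this fit was also higher, with 24.9% of 11799 genes passing, 14.6% higher and 10.3% lower. The median log2 difference was 0.52, against 0.01 over all genes, with 34 positive and 7 negative, and the groups did not overlap in 32 of the 41 genes, against 54.9% of all genes. All 6 genes that passed with 6 libraries passed again in the same direction. Stat3C replicate 2 held a higher value than Stat3C replicates 1 and 3 in 40 of these 41 genes, against 40.7% of all genes, so leaving it out lowers the Stat3C mean by construction, and the upward shift is not a separate result. The fit without it rests on 2 Stat3C libraries. Without any other single library, Gbp4 alone passed among the tested genes, at an adjusted p of 0.0204 to 0.0329.

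**Figure D1:**
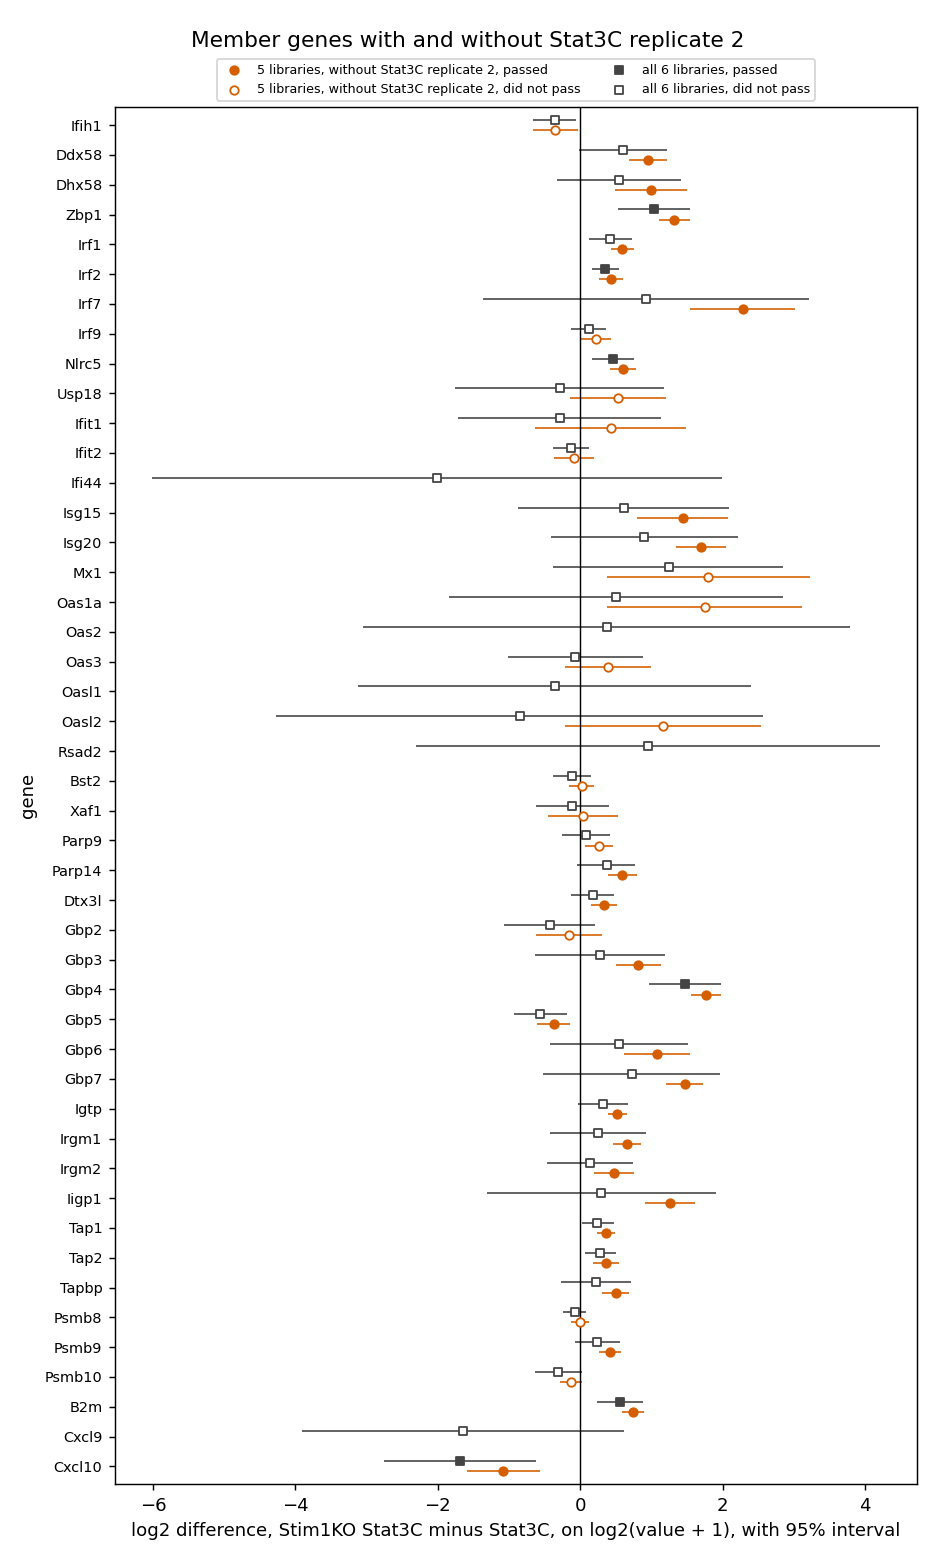
Log2 difference of Stim1KO Stat3C minus Stat3C with its 95% interval for each tested gene, with all 6 libraries (squares) and with Stat3C replicate 2 left out (circles), filled where the adjusted p is under 0.05. The intervals of Irf7, Isg15, Isg20, Gbp7 and Iigp1 span 0 with 6 libraries and lie above 0 without Stat3C replicate 2.

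**Figure D2:**
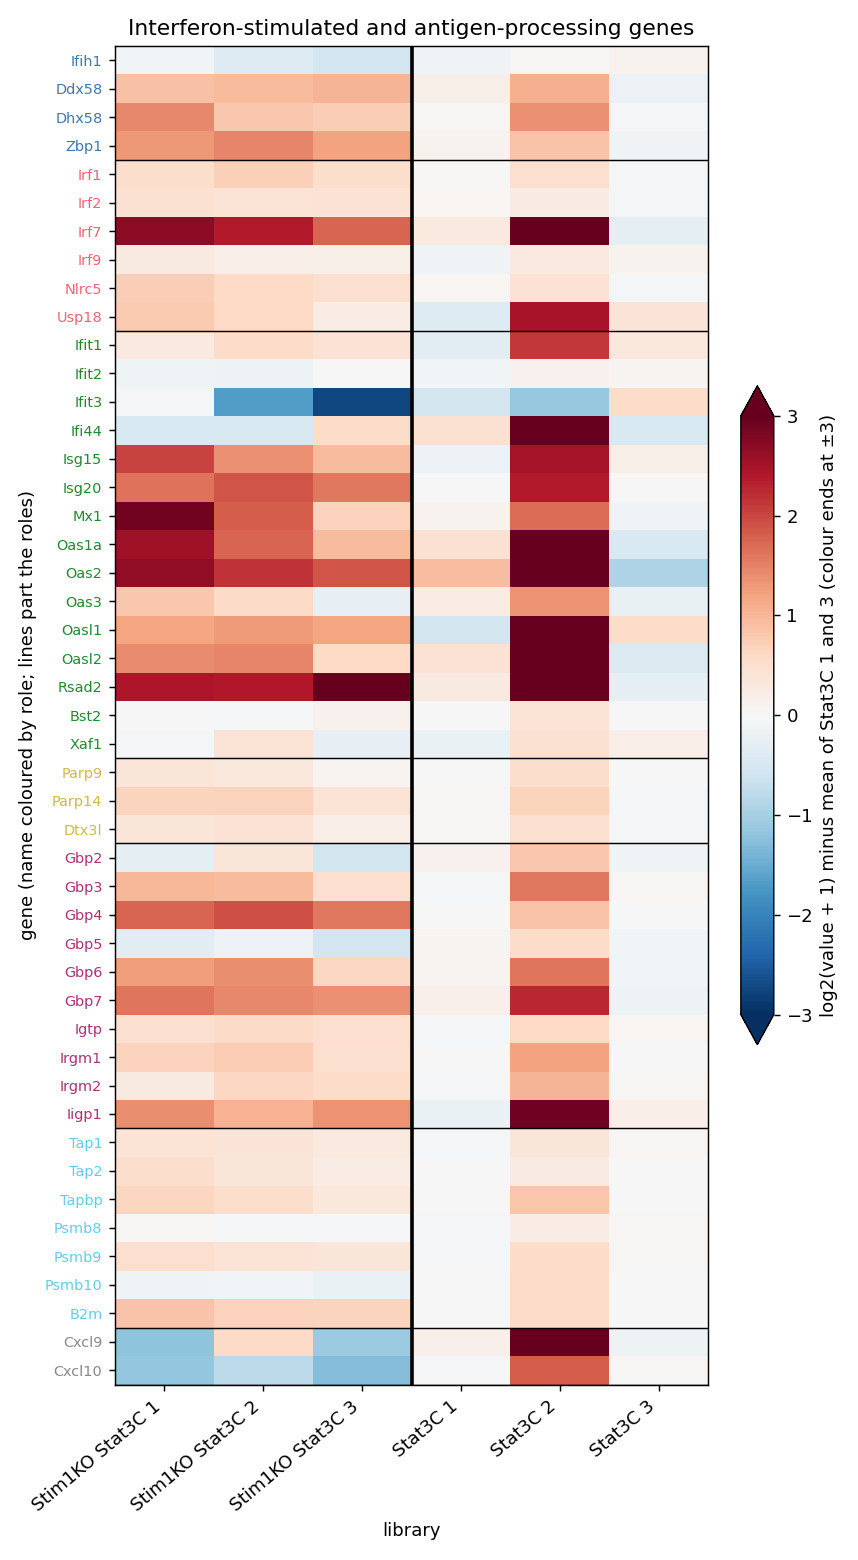
Log2(value + 1) of each of the 47 genes in each library, relative to the mean of Stat3C replicates 1 and 3, with Stim1KO Stat3C libraries on the left and Stat3C libraries on the right, and genes grouped by role. The median over the 41 genes that reach the minimum without Stat3C replicate 2 was 0.65, 0.60 and 0.44 in the Stim1KO Stat3C libraries and 0.83 in Stat3C replicate 2, against 0.00 to 0.02 over all such genes.

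Among the interferons themselves, Ifng, which encodes interferon-gamma, was the single ligand of 9 on the pathway list that was detected. It had 8617, 2554 and 7037 in Stim1KO Stat3C, against 349.8, 1124 and 364 in Stat3C, with no overlap, and averaged 6069 ± 3145 in Stim1KO Stat3C and 613 ± 443 in Stat3C (SD, n = 3 each). It rose by 3.36 on the log2 scale (SE 0.55, adjusted p = 0.00764) with 6 libraries and by 3.91 (adjusted p = 0.00012) without Stat3C replicate 2, and it passed with any 1 library left out. Within Stat3C, replicate 2 held 3.15 times the Ifng of the mean of replicates 1 and 3. Ifnb1, Ifna1, Ifna2, Ifna4, Ifne, Ifnk, Ifnl2 and Ifnl3 were at 0 in every library, which allows up to 3 reads in each. Whether Ifng bears on the other values was not tested.

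Of 8 tested receptor and kinase genes, Tyk2, a kinase bound to the type I interferon receptor, rose and Ifngr2, a chain of the interferon-gamma receptor, fell, with 6 not passing, against 8.62% higher and 4.96% lower over all genes. Ifngr2 had 256, 259.9 and 301 in Stim1KO Stat3C, against 379, 399.9 and 403 in Stat3C, a log2 difference of -0.54 (adjusted p = 0.0143), and this was -0.52 (adjusted p = 0.0135) without Stat3C replicate 2. Tyk2 had 2154, 1873 and 1768 in Stim1KO Stat3C, against 1495, 1657 and 1479.6 in Stat3C, a log2 difference of 0.32 (adjusted p = 0.0454). With 1 library other than Stat3C replicate 2 left out, the adjusted p was 0.0186 to 0.0669 for Ifngr2 and 0.0464 to 0.155 for Tyk2. Without Stat3C replicate 2, Ifnar2 (0.43, adjusted p = 0.00613), Il10rb (0.34, adjusted p = 0.0483) and Ifngr1 (0.76, adjusted p = 0.000482) also rose, against 14.6% higher over all genes. Ifngr1, the other chain of the interferon-gamma receptor, had 1601, 1462 and 1538 in Stim1KO Stat3C, against 815, 1586 and 1003 in Stat3C. Ifnar1, Jak1 and Jak2 did not pass in either fit, with log2 differences of 0.12, 0.07 and 0.16 with 6 libraries. Ifnlr1, a chain of the interferon-lambda receptor, was too low to be tested, at 0 to 2.15 in Stim1KO Stat3C and 0 to 4.33 in Stat3C. Stat2, which encodes a factor of the type I complex, had 783, 793 and 606 in Stim1KO Stat3C, against 458, 652 and 429 in Stat3C, at a log2 difference of 0.52 (adjusted p = 0.0863) with 6 libraries and 0.70 (adjusted p = 0.00337) without Stat3C replicate 2. It thus passed in limma without that library, and with 6 libraries in DESeq2 but not in limma or edgeR.

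Of 8 inhibitors of the pathway, 0 passed in limma with 6 libraries, against 13.6% of all genes, with 1 at an unadjusted p under 0.05. In edgeR or DESeq2 0 passed as well. Socs1 and Socs3, which encode suppressors of cytokine signalling, rose without Stat3C replicate 2, against 14.6% higher over all genes. Their log2 differences were 0.37 (adjusted p = 0.00538) and 0.28 (adjusted p = 0.00762) in that fit, and 0.24 (adjusted p = 0.176) and 0.17 (adjusted p = 0.238) with 6 libraries. Of 12 tested genes of nucleic acid and Toll-like receptor sensing, 4 rose in both fits, against 8.62% of all genes with 6 libraries and 14.6% without Stat3C replicate 2. These were Myd88, the adaptor of most Toll-like receptors, Tmem173, which encodes STING, the kinase gene Tbk1 and the transcription factor gene Irf8. Tmem173 had 3700.3, 3378 and 3382 in Stim1KO Stat3C, against 2846, 2764 and 2824 in Stat3C (log2 difference 0.31, adjusted p = 0.0113), and Irf8 had 4749, 5484 and 6350.1 in Stim1KO Stat3C, against 3305, 4193 and 3888 in Stat3C (log2 difference 0.54, adjusted p = 0.0236). For both genes every Stim1KO Stat3C library lay above every Stat3C library, replicate 2 included. Myd88 and Tmem173 passed with any 1 library left out, whereas with a library other than Stat3C replicate 2 left out the adjusted p was 0.03 to 0.0809 for Irf8 and 0.0431 to 0.122 for Tbk1.

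Among the 4 sensors, Zbp1 rose in both fits, and Ddx58 and Dhx58 rose without Stat3C replicate 2. Over all genes, 8.62% were higher with 6 libraries and 14.6% without that library. Zbp1, which encodes a sensor of Z-form nucleic acid that can trigger cell death, had 1589.9, 1789 and 1491 in Stim1KO Stat3C, against 693, 1178 and 603 in Stat3C. The groups did not overlap, and the log2 difference was 1.03 (SE 0.22, adjusted p = 0.0209) and 1.32 without Stat3C replicate 2 (adjusted p = 2.27e-05). Leaving out any other library took the adjusted p of Zbp1 to 0.0533 to 0.0836. Ddx58, which encodes the RNA sensor RIG-I, had 609, 642 and 678 in Stim1KO Stat3C, against 373, 691 and 295 in Stat3C. Its Stat3C replicate 2 lay above the Stim1KO Stat3C libraries and the other Stat3C libraries lay below them, and the log2 difference was 0.60 (adjusted p = 0.172) with 6 libraries and 0.95 (adjusted p = 0.000513) without that library. Dhx58, which encodes the related helicase LGP2, had 245, 159 and 151 in Stim1KO Stat3C, against 93.1, 233 and 87.2 in Stat3C, and its log2 difference was 0.54 (adjusted p = 0.362) with 6 libraries, and its mean in Stim1KO Stat3C was 2.05 times that of Stat3C replicates 1 and 3 (adjusted p = 0.0104). Ifih1, which encodes the RNA sensor MDA5, had 496, 406 and 356 in Stim1KO Stat3C, against 492, 545 and 567 in Stat3C. It was the single sensor with a negative difference, at -0.36 (95% interval -0.66 to -0.06, adjusted p = 0.105), and it was also the single gene of the 41 in which Stat3C replicate 2 was not the highest Stat3C library.

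Among the 6 regulators, Irf2 and Nlrc5 rose in both fits, and Irf1 and Irf7 rose without Stat3C replicate 2. The share of all genes that were higher was 8.62% with 6 libraries and 14.6% without that library. Nlrc5, the transactivator of MHC class I genes, had 5066, 4589 and 4206 in Stim1KO Stat3C, against 3182, 4077 and 2893 in Stat3C, a log2 difference of 0.46 (SE 0.13, adjusted p = 0.0472) and 0.60 without Stat3C replicate 2 (adjusted p = 0.000731). Irf2, a factor that competes with IRF1 for binding sites, had 1209, 1172 and 1206 in Stim1KO Stat3C, against 923, 1045 and 851 in Stat3C, a log2 difference of 0.35 (SE 0.08, adjusted p = 0.0305) and 0.43 without that library (adjusted p = 0.00306). In both genes every Stim1KO Stat3C library was above every Stat3C library, and leaving out any other single library took the adjusted p to between 0.0678 and 0.162 for Nlrc5 and between 0.0754 and 0.111 for Irf2. Irf1, an early target of interferon-gamma, had 3884, 4418 and 3904 in Stim1KO Stat3C, against 2743, 3818 and 2654 in Stat3C. It too showed no overlap, with a log2 difference of 0.42 (adjusted p = 0.0723) and 0.59 without Stat3C replicate 2 (adjusted p = 0.000355). Irf7, the factor that amplifies type I interferon production, had 153, 125 and 79.6 in Stim1KO Stat3C, against 28.6, 399.9 and 18.4 in Stat3C. It is the regulator that Stat3C replicate 2 decided most: that library held 17 times the mean of replicates 1 and 3, and the log2 difference was 0.92 (adjusted p = 0.562) with it and 2.28 (adjusted p = 0.00104) without it. Irf9, a DNA-binding partner of STAT2, had 769.6, 729 and 718 in Stim1KO Stat3C, against 590.1, 782 and 685 in Stat3C, and did not pass in either fit (adjusted p = 0.492 and 0.131). Usp18, which encodes an enzyme that removes ISG15 from proteins and a brake on the type I receptor, had 84.9, 75.2 and 57.7 in Stim1KO Stat3C, against 37.2, 279 and 64.9 in Stat3C, and also did not pass (adjusted p = 0.784 and 0.235).

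**Figure D3:**
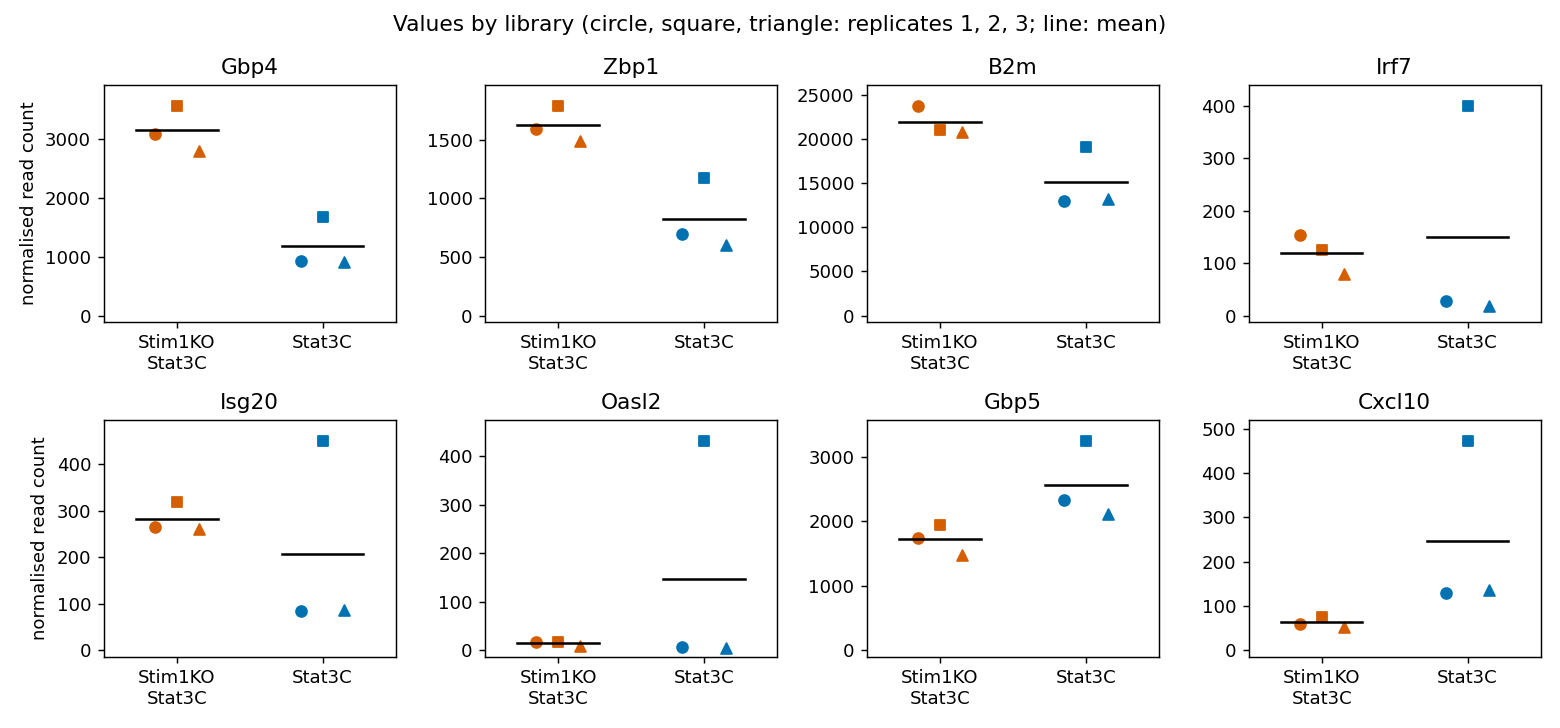
Normalised read counts of 8 genes in each library, with Stim1KO Stat3C on the left and Stat3C on the right, marker shapes for replicates and a line at each group mean. For Gbp4, Zbp1 and B2m all Stim1KO Stat3C libraries lie above all Stat3C libraries, whereas for Irf7, Isg20 and Oasl2 Stat3C replicate 2 is the highest of the 6.

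In several antiviral effectors Stat3C replicate 2 stood far above every other library. With 6 libraries, 0 of 14 tested genes passed in limma, against 13.6% of all genes, with 0 at an unadjusted p under 0.05. In edgeR or DESeq2 0 passed as well. Of the 14, Ifi44, Oas2, Oasl1 and Rsad2 reached the minimum only through Stat3C replicate 2, so their failure to pass says little. Isg20 and Isg15 rose without Stat3C replicate 2, of 10 tested, against 14.6% higher over all genes, so this count lay near the background. Isg20, which encodes an RNA exonuclease, had 266, 318 and 261 in Stim1KO Stat3C, against 85.3, 451 and 86.2 in Stat3C, a log2 difference of 0.90 (95% interval -0.41 to 2.22) with 6 libraries and 1.70 (95% interval 1.34 to 2.05, adjusted p = 8.6e-05) without it. Isg15, the ubiquitin-like modifier whose promoter with 3 overlapping ISRE cores is printed above, had 285, 180.4 and 134 in Stim1KO Stat3C, against 61.5, 398 and 78.5 in Stat3C, with 0.61 (95% interval -0.87 to 2.09) and 1.44 (95% interval 0.80 to 2.08, adjusted p = 0.00546). For both genes the Stim1KO Stat3C libraries lay between Stat3C replicates 1 and 3 on the low side and replicate 2 on the high side. The genes of the 2′,5′-oligoadenylate synthetase family, whose products activate RNase L or bind RNA, differed widely between the Stat3C libraries. Oasl2 had 16.4, 17.2 and 8.96 in Stim1KO Stat3C, against 7.79, 433 and 3.88 in Stat3C, so Stat3C replicate 2 held 74.2 times the mean of replicates 1 and 3. Oasl1 had 10.96, 11.8 and 10.95 in Stim1KO Stat3C, against 2.60, 137 and 6.78 in Stat3C, and Oas2 had 10.96, 7.52 and 5.97 in Stim1KO Stat3C, against 2.60, 90.2 and 0 in Stat3C. Oas1a, which shares 57.6% of its 50-base stretches with other transcripts, chiefly Oas1g, had 38.3, 21.5 and 11.9 in Stim1KO Stat3C, against 8.23, 89.2 and 3.88 in Stat3C. In each of these 4 genes the Stim1KO Stat3C libraries lay above Stat3C replicates 1 and 3 and far below replicate 2. Oas3, which encodes the largest synthetase, had 430.0, 366 and 206 in Stim1KO Stat3C, against 287, 626 and 207 in Stat3C, with overlap even when replicate 2 is set aside.

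The remaining antiviral effectors fell into low genes and genes with little spread. Ifi44 had 0, 0 and 0.995 in Stim1KO Stat3C, against 0.866, 69.5 and 0 in Stat3C, and Rsad2, which encodes viperin, an enzyme that makes a chain-terminating nucleotide, had 5.48, 5.37 and 9.95 in Stim1KO Stat3C, against 0.433, 42.3 and 0 in Stat3C. Outside Stat3C replicate 2 neither gene was above 9.95 in any library. Mx1, a gene of the dynamin-like GTPase family, had 53.4, 24.7 and 10.95 in Stim1KO Stat3C, against 6.93, 22.7 and 5.81 in Stat3C. Its log2 difference was 1.24 (adjusted p = 0.269) with 6 libraries and 1.80 (95% interval 0.37 to 3.23, adjusted p = 0.0668) without Stat3C replicate 2. Ifit1, which binds viral RNA lacking the host cap methylation, had 15.1, 18.3 and 16.9 in Stim1KO Stat3C, against 9.52, 56.4 and 15.5 in Stat3C. Ifit2, of the same family, had 271, 269 and 299 in Stim1KO Stat3C, against 280.1, 326 and 313 in Stat3C, with Stat3C replicate 2 at 1.1 times the mean of the other Stat3C libraries. Bst2, which encodes tetherin and holds budding virions at the membrane, had 1213, 1179 and 1350.4 in Stim1KO Stat3C, against 1239.9, 1619 and 1216 in Stat3C, and Xaf1, a pro-apoptotic gene, had 151, 209 and 132 in Stim1KO Stat3C, against 137, 214 and 178 in Stat3C. Ifit2, Bst2 and Xaf1 overlapped between the groups in both fits, with log2 differences between -0.13 and 0.04.

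The PARP-DTX3L group comprises Parp9 and Dtx3l, whose products form a complex, and Parp14, which encodes a mono-ADP-ribosyltransferase. With 6 libraries 0 of 3 passed in limma, against 13.6% of all genes, with 0 at an unadjusted p under 0.05, and 0 in edgeR or DESeq2. Their log2 differences with 6 libraries were 0.37 for Parp14 (adjusted p = 0.198), 0.18 for Dtx3l (adjusted p = 0.405) and 0.08 for Parp9 (adjusted p = 0.731). Parp14 rose by 0.59 (adjusted p = 0.00121) and Dtx3l by 0.33 (adjusted p = 0.0148) without Stat3C replicate 2, against 14.6% higher over all genes. Parp9 did not pass there, at 0.26 (adjusted p = 0.0595). Parp14 had 2534, 2568 and 2129 in Stim1KO Stat3C, against 1644, 2535 and 1548 in Stat3C. Dtx3l had 1916, 2011 and 1709.7 in Stim1KO Stat3C, against 1534, 2071 and 1441 in Stat3C, and Parp9 had 1868, 1826 and 1536 in Stim1KO Stat3C, against 1461, 2091 and 1439 in Stat3C. In all 3 genes every Stim1KO Stat3C library was above Stat3C replicates 1 and 3.

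The interferon-inducible GTPases, which attack the vacuoles of intracellular microbes, included the largest positive difference among the genes that passed with 6 libraries. Gbp4 had 3091, 3563 and 2791 in Stim1KO Stat3C, against 933, 1672 and 917 in Stat3C, and averaged 3148 ± 389 in Stim1KO Stat3C and 1174 ± 432 in Stat3C (SD, n = 3 each). The lowest Stim1KO Stat3C library lay above the highest Stat3C library, and the log2 difference was 1.47 (SE 0.22, adjusted p = 0.00536) with 6 libraries and 1.76 (SE 0.09, adjusted p = 3.48e-06) without Stat3C replicate 2. It rose in all 19 alternative settings. The other guanylate-binding protein genes did not share a direction. Gbp5, a promoter of inflammasome assembly, had 1742, 1948 and 1481 in Stim1KO Stat3C, against 2330.4, 3255 and 2109.5 in Stat3C. Every Stim1KO Stat3C library lay below every Stat3C library, and the log2 difference was -0.56 (adjusted p = 0.0592) with 6 libraries and -0.37 (adjusted p = 0.0283) without replicate 2. Gbp7 had 871, 783 and 745 in Stim1KO Stat3C, against 318, 1376 and 259.7 in Stat3C, a log2 difference of 0.72 (adjusted p = 0.397) with 6 libraries and 1.47 (adjusted p = 3.57e-05) without replicate 2. Gbp5 and Gbp7 thus differed in opposite directions in that fit, although they lie side by side on chromosome 3, at chr3:142493978-142522344 and chr3:142530342-142550149 (GRCm38, plus strand), and both promoters printed above hold 1 ISRE core and 2 GAS matches.

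Gbp3 and Gbp2 follow on the same chromosome. Gbp3 had 881, 862 and 625 in Stim1KO Stat3C, against 436, 1337 and 451 in Stat3C, and rose without Stat3C replicate 2, by 0.81 (adjusted p = 0.00289), and Gbp2 had 5520.3, 8778 and 4623 in Stim1KO Stat3C, against 7366, 11857 and 6259 in Stat3C, and did not pass in either fit (log2 difference -0.43 and -0.16). Gbp6 had 446, 491 and 287 in Stim1KO Stat3C, against 198, 568 and 177 in Stat3C, and rose without replicate 2, by 1.08 (adjusted p = 0.00453). With 6 libraries the log2 differences were 0.28 for Gbp3 (adjusted p = 0.659) and 0.55 for Gbp6 (adjusted p = 0.406). As 70.7% of the 50-base stretches of Gbp6 also occur in transcripts of other genes, chiefly Gm43302 and Gbp10, its reads are uncertain. Iigp1, an effector GTPase of the immunity-related family, had 514, 404 and 493 in Stim1KO Stat3C, against 168, 1465 and 224 in Stat3C. Stat3C replicate 2 was far above all other libraries and Stat3C replicates 1 and 3 far below them, with a log2 difference of 0.29 (adjusted p = 0.802) with 6 libraries and 1.26 (adjusted p = 0.000463) without replicate 2. Irgm1, which encodes a regulator of that family, had 2123, 2234 and 1839 in Stim1KO Stat3C, against 1302, 3031 and 1315 in Stat3C, and its relative Irgm2 had 442, 561 and 535 in Stim1KO Stat3C, against 360.2, 742 and 373 in Stat3C. Igtp, which encodes Irgm3, had 5411, 5757 and 5458 in Stim1KO Stat3C, against 3698, 5883 and 4021 in Stat3C. These 3 genes rose without Stat3C replicate 2, by 0.65 (adjusted p = 0.000625), 0.48 (adjusted p = 0.0188) and 0.52 (adjusted p = 0.000329). With 6 libraries the log2 differences were 0.25 for Irgm1 (adjusted p = 0.599), 0.14 for Irgm2 (adjusted p = 0.752) and 0.32 for Igtp (adjusted p = 0.197). Igtp and Irgm2 overlap on chromosome 11, so reads of one could be counted to the other.

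In antigen processing, of 7 genes, B2m rose in both fits, and Tap1, Tap2, Tapbp and Psmb9 rose without Stat3C replicate 2. The background was 8.62% of all genes higher with 6 libraries and 14.6% without that library. B2m, which encodes the invariant light chain of MHC class I, had 23771, 21086 and 20827 in Stim1KO Stat3C, against 12964, 19114 and 13219 in Stat3C, an average of 21895 ± 1630.4 in Stim1KO Stat3C and 15099 ± 3479 in Stat3C (SD, n = 3 each). No libraries overlapped between the groups, and the log2 difference was 0.56 (SE 0.14, adjusted p = 0.0375) and 0.74 without Stat3C replicate 2 (adjusted p = 6.18e-05), but leaving out any other library took the adjusted p to 0.0781 to 0.139. Tap1 and Tap2 encode the subunits of the transporter that carries peptides into the endoplasmic reticulum. Tap1 had 6654, 6572 and 6199.8 in Stim1KO Stat3C, against 4887, 6454 and 5210.2 in Stat3C, and Tap2 had 5586, 4976 and 4511 in Stim1KO Stat3C, against 3861, 4599.8 and 3919.5 in Stat3C. With 6 libraries the log2 differences were 0.24 for Tap1 (adjusted p = 0.141) and 0.28 for Tap2 (adjusted p = 0.0877). Without replicate 2 their log2 differences were 0.36 (adjusted p = 0.0021) and 0.36 (adjusted p = 0.0104). Tapbp, which encodes tapasin, the bridge between the transporter and MHC class I, had 4658, 4258 and 3695 in Stim1KO Stat3C, against 2989, 5270.1 and 2941 in Stat3C. Its log2 difference was 0.22 (adjusted p = 0.51) with 6 libraries and 0.50 (adjusted p = 0.00306) without replicate 2.

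Of the 3 inducible proteasome subunits, Psmb9 rose without Stat3C replicate 2, against 14.6% higher over all genes, and Psmb8 and Psmb10 did not pass. Psmb9 had 2742, 2551 and 2493 in Stim1KO Stat3C, against 1892, 2817 and 1979 in Stat3C. Its log2 difference was 0.24 (adjusted p = 0.275) with 6 libraries and 0.42 (adjusted p = 0.00173) without that library. Psmb8 had 7223, 6868 and 6898 in Stim1KO Stat3C, against 6835, 8161 and 7226 in Stat3C, with a log2 difference of -0.01 (95% interval -0.13 to 0.12) in that fit, and Psmb10 had 1632, 1660.2 and 1519.6 in Stim1KO Stat3C, against 1752, 2582 and 1748 in Stat3C, with -0.13 (95% interval -0.28 to 0.03). Of the constitutive subunits that they replace, 0 of 3 passed with 6 libraries in limma, against 13.6% of all genes. At an unadjusted p under 0.05, 2 were lower in limma, and 0 passed in edgeR and 2 lower in DESeq2. Psmb5 and Psmb6 fell without Stat3C replicate 2, against 10.3% lower over all genes, with log2 differences of -0.19 (adjusted p = 0.045) and -0.24 (adjusted p = 0.033), and Psmb7 was at -0.17 (adjusted p = 0.0738).

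Of 15 tested genes for MHC class I chains and their loading, H2-T23, H2-T10 and H2-M3 rose and Tapbpl, which encodes a relative of tapasin, fell, with 11 not passing, against 8.62% higher and 4.96% lower over all genes. H2-T23, the mouse Qa-1 chain, had 4448, 4057 and 4078 in Stim1KO Stat3C, against 3221, 3813 and 3359 in Stat3C (log2 difference 0.28, adjusted p = 0.0443). With 1 library other than Stat3C replicate 2 left out, the adjusted p was 0.0796 to 0.162 for H2-T23, 0.0711 to 0.148 for H2-T10, 0.0271 to 0.129 for H2-M3 and 0.0453 to 0.115 for Tapbpl. The count was 7 higher and 1 lower without Stat3C replicate 2, against 14.6% higher and 10.3% lower over all genes, with the classical chains H2-K1 and H2-D1 among them, named here after their values were seen. H2-D1 had 7748, 7208 and 6887 in Stim1KO Stat3C, against 5065, 6776 and 5425 in Stat3C, at 0.35 (adjusted p = 0.0635) with 6 libraries and 0.47 (adjusted p = 0.000799) without replicate 2. H2-K1 had 25547, 21554 and 21122 in Stim1KO Stat3C, against 17221, 23473 and 17687 in Stat3C, at 0.23 (adjusted p = 0.243) and 0.38 (adjusted p = 0.00722). Reads of the MHC class I genes, which are near-identical in places, can be split between them.

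Of the 2 chemokine genes, Cxcl10 had lower values in every Stim1KO Stat3C library, and Cxcl9 had a lower mean with overlap between the groups. Cxcl10, which draws CXCR3-bearing T cells, had 58.9, 76.2 and 53.7 in Stim1KO Stat3C, against 129.9, 473 and 136 in Stat3C. The groups did not overlap, and the log2 difference was -1.69 (SE 0.46, adjusted p = 0.0482) with 6 libraries and -1.08 (SE 0.23, adjusted p = 0.00732) without Stat3C replicate 2. Cxcl10 thus fell with and without that library, although leaving out any other library took its adjusted p to 0.058 to 0.147. Cxcl9, a ligand of the same receptor, had 2.74, 11.8 and 2.99 in Stim1KO Stat3C, against 8.66, 77.6 and 6.78 in Stat3C, so Stim1KO Stat3C replicate 2 lay above Stat3C replicates 1 and 3. Cxcl9 reached the minimum only through Stat3C replicate 2, and it did not pass with 6 libraries (-1.65, adjusted p = 0.289).

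A further 58 interferon-stimulated genes outside the 47 were listed, of which 57 were found and 52 tested. With 6 libraries 12 of the 52 rose and 0 fell in limma, against 8.62% higher and 4.96% lower over all genes, with 0 lower at an unadjusted p under 0.05 and 0 lower in edgeR or DESeq2. Without Stat3C replicate 2, 32 of 51 rose and 0 fell, against 14.6% higher and 10.3% lower over all genes, also with 0 lower at an unadjusted p under 0.05. Leaving out 1 other library gave 13 higher without Stim1KO Stat3C replicate 3 and 7 higher without each of Stat3C replicates 1 and 3 and Stim1KO Stat3C replicates 1 and 2. The lowest adjusted p-values belonged to Gbp9, Pyhin1, Pml and Ly6a. Gbp9, another guanylate-binding protein, had 544, 547 and 383 in Stim1KO Stat3C, against 192, 232 and 178 in Stat3C (log2 difference 1.28, adjusted p = 0.00359). Pyhin1, of a family that binds DNA, had 173, 188 and 150.3 in Stim1KO Stat3C, against 45.0, 74.5 and 45.5 in Stat3C (log2 difference 1.65, adjusted p = 0.00445). Pml, which encodes the scaffold of PML nuclear bodies, had 6977, 8495 and 7419.9 in Stim1KO Stat3C, against 5169, 5608 and 4949 in Stat3C (log2 difference 0.54, adjusted p = 0.00591), and Ly6a, which encodes the surface protein Sca-1, had 32177, 32231 and 31007 in Stim1KO Stat3C, against 20476, 25890.4 and 21284 in Stat3C (log2 difference 0.50, adjusted p = 0.00926). In these 4 genes every Stim1KO Stat3C library was above every Stat3C library, replicate 2 included, and each gene passed with any 1 library left out. They were picked by adjusted p from the same libraries, so this adds no separate support. The groups did not overlap in 35.6% of all genes.

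Within the Stat3C group, replicate 2 was higher than replicates 1 and 3 in most of the interferon-stimulated genes. Because Ifi44, Oas2, Oasl1, Rsad2 and Cxcl9 reached the minimum only through that library, they are left out of these counts and medians, and the background is the 11799 genes that reach it without that library. It was at least 2-fold above the mean of replicates 1 and 3, on log2(value + 1), in 18 of 41 genes, against 4.73% of all genes, and it was the highest of all 6 libraries in 29 of 41, against 16.1%. Its median log2 excess was 0.83 over the 41 genes, with a range of 0.05 to 6.05, and 0.00 over all genes. By role the median was 1.91 in 10 antiviral effectors, 1.11 in GTPases, 0.96 in sensors, 0.54 in antigen processing, 0.53 in the PARP-DTX3L group and 0.46 in regulators. The chemokine gene Cxcl10 was at 1.83. Replicate 2 was the highest of 6 libraries in 9 of 10 antiviral effectors, 9 of 10 GTPases and 4 of 7 antigen-processing genes. Among the 30 of these genes whose promoter was searched, those with an ISRE core in the 250 bases before the start had a median ratio of 2.32 (9 of 15 at least 2-fold), and those without 1.41 (4 of 15). The ISRE core went with role, being found in 7 of 7 GTPase genes and 1 of 6 antigen-processing genes searched, so core and role cannot be told apart. As replicate 2 is a single library against 2 others, no test was made.

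Replicate 2 lay above the Stim1KO Stat3C libraries in some genes and below them in others. Gbp4 in replicate 2, at 1672, reached 1.81 times the other Stat3C libraries but stayed below the Stim1KO Stat3C values of 3091, 3563 and 2791. Oasl2 in replicate 2, at 433, lay far above the Stim1KO Stat3C values of 16.4, 17.2 and 8.96. Cxcl10 in replicate 2 stood above all other libraries, while the Stim1KO Stat3C values were the lowest of the 6.

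Markers of other cells also differed between Stat3C replicate 2 and the other Stat3C libraries, in both directions. B cell markers summed to 243.3, 134.5 and 380.8 and CD8 markers to 420.8, 277 and 453.5 in Stat3C replicates 1, 2 and 3. Both lists were thus lowest within Stat3C in replicate 2. All 7 macrophage and monocyte markers used were found, and they summed to 377, 334 and 402 in Stim1KO Stat3C and 176, 309 and 133 in Stat3C. Cd68, the single marker of this list that passed with 6 libraries, made up most of the sum in Stim1KO Stat3C, with 364, 317 and 396 in Stim1KO Stat3C, against 137, 139 and 115 in Stat3C. Outside Cd68, Itgam had 9.59, 11.8 and 2.99 in Stim1KO Stat3C, against 14.7, 72.5 and 7.75 in Stat3C, Cd14 had 2.74, 3.22 and 2.99 in Stim1KO Stat3C, against 10.4, 40.3 and 9.69 in Stat3C, and Adgre1, which encodes F4/80, had 0, 0 and 0 in Stim1KO Stat3C, against 3.03, 26.7 and 0 in Stat3C. Lyz2 had 0, 2.15 and 0 in Stim1KO Stat3C, against 8.66, 19.6 and 0 in Stat3C, and Csf1r had 0, 0 and 0 in Stim1KO Stat3C, against 2.17, 7.05 and 0 in Stat3C. Fcgr1 had 0, 0 and 0 in Stim1KO Stat3C, against 0, 4.03 and 0 in Stat3C. Itgam, Cd14, Adgre1, Lyz2 and Csf1r were highest in Stat3C replicate 2, at low levels in the scale of the T cell genes. Dendritic cell markers summed to 19.2, 34.4 and 60.7 in Stim1KO Stat3C and 21.2, 43.3 and 23.3 in Stat3C, and NK cell markers to 86.3, 31.1 and 117 in Stim1KO Stat3C and 41.6, 70.0 and 52.3 in Stat3C. The 2 of 5 markers of innate-like or gamma-delta T cells that were found, Zbtb16 and Sox13, summed to 15.1, 10.7 and 28.9 in Stim1KO Stat3C and 32.9, 59.9 and 30.0 in Stat3C. The part of these cells in the interferon-stimulated values was not tested.

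**Figure D4:**
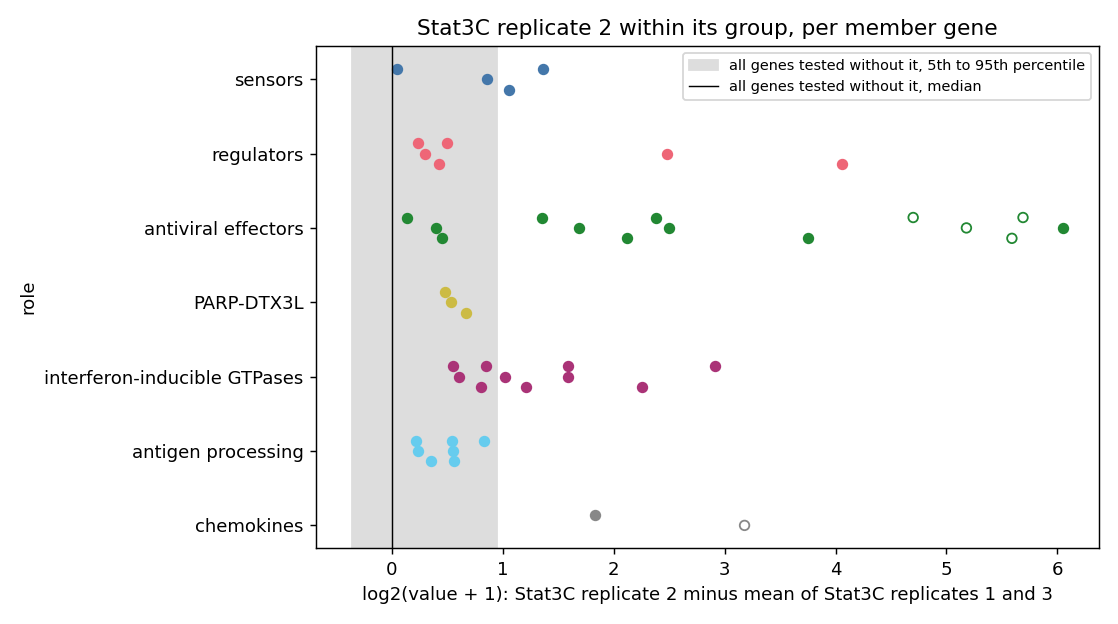
For each tested gene, the log2 excess of Stat3C replicate 2 over the mean of Stat3C replicates 1 and 3, by role; open circles are the 5 genes that reach the minimum only through that library, the grey band spans the 5th to the 95th percentile of all genes tested without it (-0.36 to 0.95) and the line is their median. Among the filled circles, the 10 antiviral effectors lie between 0.14 and 6.05 and the 7 antigen-processing genes between 0.22 and 0.83.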

How the data were processed

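There were 3 libraries per genotype, each of poly(A) RNA (input 100 ng) by a stranded kit, per the labels' protocols. According to the submitters' processing notes the genome build was mm10, and DESeq2 1.22.2, HTSeq 0.11.1 and TopHat2 2.1.1 were used, with no roles stated. Gene models and the strand setting of the counting are not given in the sources, which leaves overlapping, antisense and near-identical genes uncertain. The deposited table holds a normalised signal, taken as read counts over a size factor set by the authors, because within 0.01 every value above 0 (100%) was a whole multiple of one step per library. Dividing by the step returned whole reads, which were used for the alternatives in edgeR 4.0.16 and DESeq2 1.42.0. In Stim1KO Stat3C replicate 3 the step of 0.995 is too close to 1 to tell from rounding. Of 23420 rows, 27 with date-like names (at most 0.217% of reads) were left out.

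The main test was limma 3.58.1 in R 4.3.3 with a variance trend, two-sided, on log2(value + 1), for genes with a mean of at least 10, without covariates and with Benjamini-Hochberg adjustment over all genes tested. Fold changes on this scale understate those of low genes. The scripts were tested on simulated data. There were 15 alternatives planned and 4 added after seeing the data. No batch or pairing is given by the labels, and replicate numbers follow accession order. The 47 genes, the pathway and marker lists and the tests were chosen with earlier results of these data known. The text names every one of the 47 genes, Stim1, Ifng, Stat2, the receptors and kinases, and of each other pathway list up to 4 genes that passed, by lowest adjusted p. Other pathway genes named were chosen after their values were seen. From the pathway and the marker lists 1 gene each was taken out and is not reported here. Positions and the 50-base stretches shared between genes came from GENCODE mouse release M21 (GRCm38), and promoters from RefSeq (GRCm38.p6).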

Additional observations from a re-analysis of the deposited data

How the results depend on the processing

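Of the 47 genes, 5 rose and 1 fell with all 6 libraries, and over all genes 1623 passed. The numbers that rose and fell were 3 and 0 in edgeR, 7 and 2 in DESeq2, 3 and 0 with no filter on low values, 5 and 0 with a pseudocount of 5, and 1 and 0 in limma without a variance trend, where 827 genes passed over the whole table. Leaving out 1 library at a time gave 1 to 24 higher, 0 to 2 lower and 618 to 2939 genes passing over the table, with 24, 2 and 2939 coming from the fit without Stat3C replicate 2. At an unadjusted p under 0.05, 2 to 4 of the genes were lower in the settings where 0 fell. The 4 alternatives that follow were chosen after seeing the data. Without Stat3C replicate 2, edgeR gave 25 higher, 2 lower and 2965 over the table, DESeq2 26, 2 and 3160, and TMM scaling 24, 2 and 2958, and all 26 genes called by limma in that fit were also called by edgeR and DESeq2. Without Stim1KO Stat3C replicate 3, edgeR gave 1 higher, 0 lower and 916. The median log2 difference over the genes was 0.04 to 0.52 over the settings.

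Among 1278 comparisons of single genes with their main value, in 69 genes, 1028 kept direction and side of the threshold, 98 no longer passed, 101 newly passed and 51 changed sign, all of the last in genes that did not pass with 6 libraries. With 6 libraries, Irf7 was at -0.34 in edgeR and -0.33 in DESeq2, Oas1a at -0.54 and -0.52, and Iigp1 at -0.41 in both; Oas2 was at -1.96 in edgeR and -0.24 with a pseudocount of 5, and Rsad2 at -1.06 in edgeR. In edgeR without Stim1KO Stat3C replicate 3, Irf7 was at -0.12, Oas1a at -0.21, Iigp1 at -0.45, Oas2 at -1.77, Rsad2 at -1.43, Oas3 at 0.08 and Xaf1 at 0.02. Without Stat3C replicate 2, in edgeR, DESeq2 and TMM scaling in that order, Usp18 was at 0.53, 0.51 and 0.53, Ifit1 at 0.47, 0.44 and 0.42, Oas3 at 0.40, 0.41 and 0.38, Oasl2 at 1.14, 1.21 and 1.16, Bst2 at 0.02, 0.01 and 0.01, and Xaf1 at 0.06, 0.05 and 0.03. With 1 library left out at a time, the log2 difference was -0.90 to 0.53 for Usp18, -0.80 to 0.43 for Ifit1, -0.36 to 1.75 for Oas1a, -1.02 to 0.55 for Oas2, -0.41 to 0.39 for Oas3, -2.07 to 1.16 for Oasl2, -0.04 to 1.09 for Rsad2, -0.19 to 0.02 for Bst2, -0.30 to 0.04 for Xaf1, -0.01 to 0.26 for Parp9, -0.04 to 0.48 for Irgm2 and -0.29 to 1.26 for Iigp1. Fewer samples in a fit lower its power, and otherwise the cause was not tested.

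No paired analysis was possible because the labels give each library its own number and none is shared between the groups. With 3 libraries a group, and 16009755 reads in the shallowest, genes near 10 normalised counts rest on few reads. The Stat3C group holds a library that stands apart in these genes, and which of its libraries is typical of the genotype cannot be told from 3.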

Other observations

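Some interferon-stimulated genes outside the 47, chosen here after their values were seen, were higher in Stat3C replicate 2 than in any other library. Ifitm1, which encodes a membrane protein that hinders viral entry, had 323, 345 and 266 in Stim1KO Stat3C, against 247, 5639.8 and 276 in Stat3C. Its relative Ifitm3 had 344, 272 and 400.1 in Stim1KO Stat3C, against 297, 3025 and 366 in Stat3C, and Ifitm2 had 683, 667 and 515 in Stim1KO Stat3C, against 462, 1798 and 494 in Stat3C. Cmpk2, a neighbour of Rsad2 that encodes a nucleotide kinase, had 39.7, 33.3 and 17.9 in Stim1KO Stat3C, against 19.9, 235 and 27.1 in Stat3C. Ciita, the transactivator of MHC class II genes, had 12.3, 6.44 and 2.99 in Stim1KO Stat3C, against 4.76, 105 and 6.78 in Stat3C. None of the 5 passed in limma with 6 libraries (adjusted p = 0.457 for Ifitm1, 0.387 for Ifitm3, 0.725 for Ifitm2, 0.553 for Cmpk2 and 0.494 for Ciita).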
